A study of Mus musculus with 8 samples.

Results

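A set of 10 genes of neutrophil granules and receptors was followed in bulk RNA from mouse lung after naphthalene. They were taken from the count table by symbol (S100a8, S100a9, Csf3r, Retnlg, Ly6g, Camp, Ngp, Ltf, Cd177 and Clec4d), and they make up 10 of its 22244 genes. The libraries came from the right cranial lobe of adult male C57BL/6J mice, an inbred wild-type strain, with 4 untreated control mice and 4 mice injected with naphthalene, an aromatic hydrocarbon that is toxic to the club cells of the airway. No vehicle injection is named for the controls, so the injection and the compound cannot be told apart. The dose and the time of sampling were not given in the sources used here. The comparison asks whether transcripts of neutrophils differ between the injured and the untreated lung, with and without control 3.

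Neutrophils are short-lived white blood cells that are made in the bone marrow and enter the lung from blood. Their granule proteins are made in sequence as the cell matures: primary granule enzymes first, then the secondary granule proteins Ltf (lactoferrin, an iron-binding protein), Camp (the cathelicidin antimicrobial peptide) and Ngp (neutrophilic granule protein). S100a8 and S100a9, the pair of calcium-binding proteins that form calprotectin, and the receptors Csf3r (for the growth factor G-CSF) and Clec4d (a C-type lectin) stay high in the mature cell. Several of these genes are also transcribed elsewhere: Ltf is made by secretory epithelium, and S100a8, S100a9, Clec4d and Csf3r are also found in monocytes. In bulk tissue, fewer cells of a type and less RNA per cell cannot be told apart.

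The sequences just upstream of 4 members are shown because these genes carry the contrasts described below: S100a8 and S100a9 had parallel values, Clec4d passed the test with all libraries, and the values of Ltf lay the other way. They are the 250 bases before the RefSeq start site on build GRCm38.p6, read 5′ to 3′ on the strand of the gene, and all 10 members were matched by symbol. They lie at chr3:90668821-90669070 (plus strand) for S100a8, chr3:90695722-90695971 (minus strand) for S100a9, chr6:123261857-123262106 (plus strand) for Clec4d and chr9:111019042-111019291 (plus strand) for Ltf. Capitals mark letters that match TTNNGNAAT, a form of the site of C/EBP factors, or GAGGAAG, a form of the site of PU.1, on either strand. Both kinds of factor are regulators of myeloid genes.
S100a8: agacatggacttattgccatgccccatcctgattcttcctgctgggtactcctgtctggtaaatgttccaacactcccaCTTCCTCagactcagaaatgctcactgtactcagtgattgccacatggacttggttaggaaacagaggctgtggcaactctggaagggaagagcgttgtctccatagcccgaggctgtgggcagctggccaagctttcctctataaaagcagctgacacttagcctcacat
S100a9: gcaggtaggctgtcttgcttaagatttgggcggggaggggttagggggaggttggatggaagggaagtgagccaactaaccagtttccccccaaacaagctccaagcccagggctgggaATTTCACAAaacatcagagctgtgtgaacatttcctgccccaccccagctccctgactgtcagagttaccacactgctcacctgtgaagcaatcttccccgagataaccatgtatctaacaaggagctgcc
Clec4d: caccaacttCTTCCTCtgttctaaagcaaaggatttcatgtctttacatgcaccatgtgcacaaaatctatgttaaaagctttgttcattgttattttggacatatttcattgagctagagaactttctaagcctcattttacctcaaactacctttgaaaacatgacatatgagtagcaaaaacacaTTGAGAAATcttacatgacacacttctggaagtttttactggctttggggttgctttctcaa
Ltf: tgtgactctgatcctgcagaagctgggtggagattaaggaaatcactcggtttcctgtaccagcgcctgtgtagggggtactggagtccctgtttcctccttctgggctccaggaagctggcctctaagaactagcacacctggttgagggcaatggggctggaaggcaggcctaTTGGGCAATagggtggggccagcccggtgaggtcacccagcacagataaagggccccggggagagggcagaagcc

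Counted over the 250 upstream bases, TTNNGNAAT was found in 5 of the 10 member genes and in 10.2% of 32851 mouse promoter entries of the same length. The 5 genes were S100a9 (positions -131 to -123, counted back from the start site), Ngp (-139 to -131), Ltf (-75 to -67), Cd177 (-55 to -47) and Clec4d (-62 to -54). GAGGAAG was found in 4 member genes and in 10.6% of the entries. Those were S100a8 (-171 to -165), Csf3r (-86 to -80), Ly6g (in both of its entries) and Clec4d (-241 to -235). Retnlg and Camp held neither set of letters in this window, Clec4d alone held both, and no match of one motif overlapped a match of the other. These are matches of letters and not measured binding. Ltf, whose values lay lower after naphthalene, and S100a9, whose values lay higher in the libraries other than control 3, both held the first motif.

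Total counts ran from 10743842 to 16792306 per library, so that 1 count stood for 0.0595 to 0.0916 CPM (the count scaled to library size, with TMM factors between libraries). As a check on the lung label, Scgb1a1, the secretoglobin of club cells, measured 770.1 to 6692 CPM in the 8 libraries. Of the genes matched to chromosome 1, 1159 of 1172 are listed at 0 in all 8 libraries, whereas the other autosomes and X ranged from 0.659% to 21.3% of genes at 0. No member lies on chromosome 1, but 11 of the 64 other neutrophil pathway genes do and are listed at 0, among them the chemokine receptors Cxcr2, Cxcr1 and Cxcr4, the decoy receptor Il1r2 and the endothelial selectins Sele and Selp. Nothing can be said of those 11 from this table. Every member had counts, and 7 of 10 had enough to be tested; Camp, Ngp and Ly6g did not pass the filter on low counts and were fitted without it.

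With all 8 libraries, Retnlg and Clec4d rose after naphthalene and no tested member fell (edgeR quasi-likelihood test, Benjamini-Hochberg adjusted over all 14192 tested genes, threshold 0.05). That is 2 of 7 tested members, where 28.7% of all tested genes passed, 14.1% higher and 14.6% lower, and nothing more is read from so small a count. Control 3 stood apart from the other controls in many members. Without it 5 of 7 tested members passed, all higher, namely S100a8, S100a9, Csf3r, Retnlg and Clec4d, where 26.4% of 14420 tested genes passed, 13% higher and 13.4% lower. The median log2 fold change of the 7 tested members was 1.13 with all libraries and 1.68 without control 3, against 0.01 in both cases over all tested genes. Control 3 was left out with its high S100a8 level already known, so the test without it describes the other 7 libraries and is no independent support.

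The call with all libraries was not stable. Neither Retnlg nor Clec4d passed when control 1, control 2, control 4, naphthalene 2 or naphthalene 3 was left out, so the count went from 2 to 0 each time. In the same fits the calls over all tested genes also fell, from 4075 of 14192 to between 2929 of 14227 and 3042 of 14386. Without control 3 the same 5 genes passed in each of the 7 fits that left out a further library, and Ltf joined them, lower, when naphthalene 4 was the one removed. Over all tested genes those fits called from 2081 of 14513 to 5349 of 14268. With all 8 libraries the 2 groups overlapped in each of the 7 tested members, where 13.9% of tested genes lay wholly higher and 14.7% wholly lower. Without control 3 the same 5 members lay wholly higher and Ltf wholly lower, where 18.3% and 18.7% of tested genes did so.

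**Figure D1:**
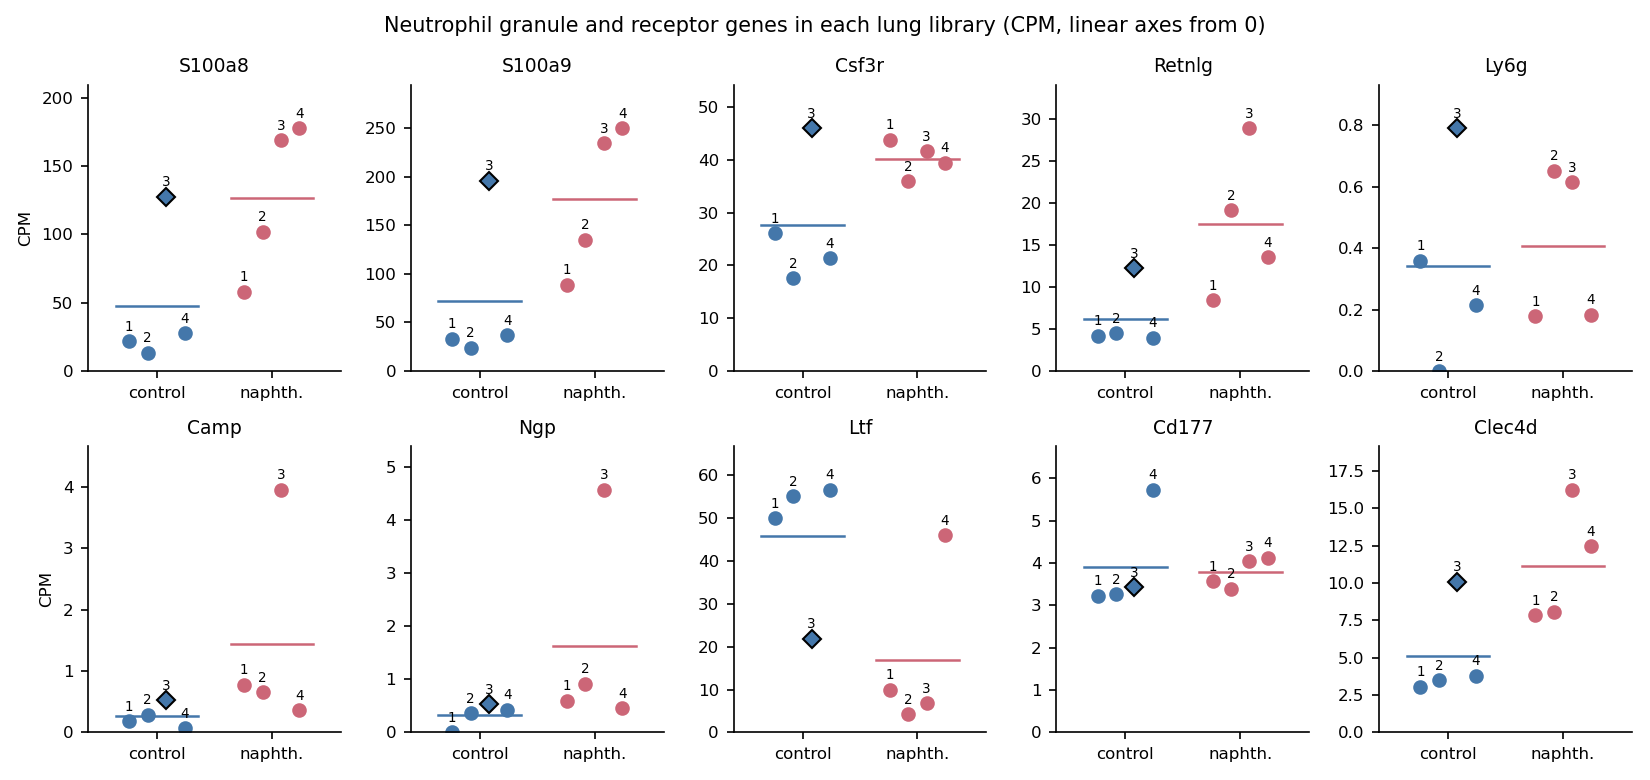
CPM (linear axes from 0) of each of the 10 genes in the 4 control (blue) and 4 naphthalene (red) libraries; the numbers are replicate numbers, the diamond is control 3 and the horizontal lines are group means. For S100a8, control 3 sits at 127.5 CPM among the naphthalene libraries (57.9 to 177.6 CPM) and far above the other controls (13.2 to 27.4 CPM).

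The calprotectin pair was the most abundant of the members per kilobase of exon, although Ltf had the highest CPM of the members in controls 1, 2 and 4. In control 3 the pair stood farthest above the other controls. S100a8 measured 21.8, 13.2, 127.5 and 27.4 CPM in controls 1 to 4 and 57.9, 101.9, 169.0 and 177.6 CPM in naphthalene 1 to 4. Controls 1, 2 and 4 lay below every naphthalene library, and control 3 lay above naphthalene 1 and 2. The group means were 47.5 ± 53.7 and 126.6 ± 57.0 CPM (SD, n = 4 each), and the difference did not pass (edgeR adjusted p = 0.108, with a log2 fold change of 1.42 and SE of 0.80). Against controls 1, 2 and 4 alone (20.8 ± 7.16 CPM, SD, n = 3) S100a8 was 6.09-fold higher in mean CPM and passed (edgeR adjusted p = 0.00142; log2 fold change 2.60, SE 0.49). With all controls kept it also passed without naphthalene 1 (edgeR adjusted p = 0.0489).

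S100a9, which is made with S100a8 and forms a heterodimer with it, followed the same order of libraries in both groups. Its levels were 33.3, 23.9, 195.9 and 36.8 CPM in controls 1 to 4 and 88.7, 135.1, 234.4 and 250.1 CPM in naphthalene 1 to 4. Control 3 again exceeded naphthalene 1 and 2, and the other controls lay below all 4. The log2 fold change was 1.29 with all libraries (SE 0.77, edgeR adjusted p = 0.133) and 2.50 without control 3 (SE 0.40, edgeR adjusted p = 0.000903). Counts of S100a8 were 0.553 to 0.754 times those of S100a9 in every library. Per kilobase of merged exon, S100a9 was 1.76 to 2.40 times S100a8. Together the pair held 30.5% to 41.1% of the 10 members' counts in controls 1, 2 and 4, 77.2% in control 3 and 66.1% to 79.1% in the naphthalene libraries.

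Among the receptors, Csf3r, which passes the signal of G-CSF for making and releasing neutrophils, had the smallest difference of the 5 genes. Its levels were 26.1, 17.6, 46.0 and 21.3 CPM in controls 1 to 4 and 43.9, 35.9, 41.6 and 39.5 CPM in naphthalene 1 to 4. Control 3 was above all 4 naphthalene libraries, and the other 3 controls were below all of them. Csf3r missed the threshold with all libraries (edgeR adjusted p = 0.121; log2 fold change 0.54, SE 0.30), but not without control 3 (edgeR adjusted p = 0.00201; 0.89, SE 0.17). The naphthalene libraries were close together for this gene (40.2 ± 3.38 CPM, SD, n = 4), while those of S100a8 spread over a wider range.

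Clec4d, a lectin receptor for fungal and mycobacterial glycolipids, measured 3.05, 3.48, 10.1 and 3.80 CPM in controls 1 to 4 and 7.86, 8.09, 16.3 and 12.5 CPM in naphthalene 1 to 4. Only control 3 reached into the naphthalene range, above naphthalene 1 and 2. Clec4d rose by a log2 fold change of 1.13 (SE 0.46, edgeR adjusted p = 0.0448), and by 1.68 without control 3 (SE 0.27, edgeR adjusted p = 0.00255). The call with all libraries was lost without any of controls 1, 2 and 4 or naphthalene 2, 3 and 4 (edgeR adjusted p 0.0502 to 0.131). Cd177, a surface glycoprotein of neutrophils that binds PECAM1, measured 3.23, 3.27, 3.43 and 5.73 CPM in controls and 3.57, 3.39, 4.04 and 4.12 CPM after naphthalene, with control 4 the highest of all. No difference passed for Cd177 (edgeR adjusted p = 0.865; log2 fold change -0.06, SE 0.20), and control 3 was not raised among the controls here.

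Ly6g, the surface antigen by which mouse neutrophils are sorted, was close to the limit of counting in this RNA. It had 4, 0, 9 and 3 counts in controls 1 to 4 and 3, 10, 7 and 2 counts in naphthalene 1 to 4, where a count of 0 allows up to 3. The groups overlapped widely, and neither fit without a filter passed (log2 fold change 0.30, edgeR adjusted p = 0.811; without control 3, 1.10, edgeR adjusted p = 0.419). No difference in Ly6g was detected, and whether a greater depth would show one was not tested. Ly6 genes have close copies, and whether multi-mapping reads were counted is unknown here, so its level is uncertain.

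Retnlg, a secreted resistin-like protein of neutrophils, had the smallest adjusted p of the tested members with all libraries. It measured 4.21, 4.50, 12.2 and 3.94 CPM in controls 1 to 4 and 8.45, 19.1, 28.9 and 13.6 CPM in naphthalene 1 to 4. Only naphthalene 1 lay below control 3, and every naphthalene library lay above the other controls. Retnlg rose from 6.22 ± 4.00 to 17.5 ± 8.76 CPM (SD, n = 4 each; edgeR adjusted p = 0.0221; log2 fold change 1.498, SE 0.53), and by a log2 value of 2.04 without control 3 (SE 0.38, edgeR adjusted p = 0.00365). With all libraries it no longer passed once control 1, 2 or 4 or naphthalene 2 or 3 was removed (edgeR adjusted p 0.0522 to 0.0703).

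The 3 secondary granule genes did not share a pattern across libraries. Camp, the cathelicidin gene, had 2, 4, 6 and 1 counts in controls 1 to 4 and 13, 10, 45 and 4 counts in naphthalene 1 to 4. Ngp, a cystatin-like granule protein gene, had 0, 5, 6 and 6 counts in controls and 10, 14, 52 and 5 counts after naphthalene. For both, naphthalene 3 held most of the counts of its group, and naphthalene 4 lay within the range of the controls. In the fit without a filter, where 21.1% of 19092 genes passed, Camp passed at a log2 fold change of 2.37 (SE 0.73; edgeR adjusted p = 0.0433) and Ngp did not at 2.19 (SE 0.83; edgeR adjusted p = 0.0630).

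Camp kept its call without control 3 (2.88, edgeR adjusted p = 0.0404, where 19.8% of 19065 genes passed) but lost it without naphthalene 3 (1.19, edgeR adjusted p = 0.259) and without control 1, 2 or 4. With 1 library left out, Ngp passed without naphthalene 1 and without naphthalene 4 (edgeR adjusted p = 0.0142 and 0.0290). Erythroid genes moved with this library: all 7 of the erythroid list were highest in naphthalene 3, and their summed level was 2970 CPM there, against 52.0 to 634 CPM in the other naphthalene libraries and 31.6 to 1263 CPM in controls. Platelet genes were also highest in naphthalene 3 (65.6 CPM summed, against 18.0 to 38.6 CPM in all other libraries). The part of blood or its cells in the Camp and Ngp values was not tested. Control 4, with the next highest erythroid sum, held 1 count of Camp and 6 of Ngp.

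Set against S100a8, the 2 secondary granule genes showed no order by group. Camp and Ngp together gave 8.23, 49.5, 8.27 and 18.3 counts per 1000 S100a8 counts in controls 1 to 4 and 23.6, 15.4, 50.4 and 4.64 in naphthalene 1 to 4. Control 3, so high in S100a8, had 12 counts of Camp and Ngp together, and the other controls had 2 to 9. The low counts make each of these ratios imprecise.

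Ltf, the lactoferrin gene, was the member whose values lay lower after naphthalene. It measured 50.02, 55.1, 21.9 and 56.6 CPM in controls 1 to 4 and 9.999, 4.30, 6.85 and 46.1 CPM in naphthalene 1 to 4. Naphthalene 4 lay near the controls, and control 3 was the lowest control, between naphthalene 4 and the other naphthalene libraries. The difference did not pass with all libraries (log2 fold change -1.48, SE 0.80, edgeR adjusted p = 0.0914) or without control 3 (-1.71, SE 0.73, edgeR adjusted p = 0.0674). With no filter on low counts and without control 3 it passed narrowly (-1.74, edgeR adjusted p = 0.0398). Without naphthalene 4 it passed, at -2.70 with all controls (edgeR adjusted p = 0.000469) and -2.93 without control 3 (edgeR adjusted p = 0.000173).

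Genes of airway secretory cells fell. All 9 genes of that list, which was added after values had been seen, passed as lower, where 14.6% of all tested genes did so. Their summed level ran from 5291 to 10870 CPM in controls and 1071 to 2711 CPM after naphthalene. Among naphthalene libraries 7 of the 9 were highest in naphthalene 4, the library highest in Ltf, but the sum was highest in naphthalene 3. Scgb1a1, which holds most of that sum, measured 900.9 CPM in naphthalene 4 and 2185 CPM in naphthalene 3, and Cyp2f2, the enzyme that activates naphthalene, was lowest in naphthalene 4 (139.0 CPM). In all, 4 of 9 were lowest in control 3 among controls. Such ranks were not counted over all tested genes, so nothing is read from the 7 of 9 or the 4 of 9. The part of these cells in the Ltf values was not tested. The ratio of S100a8 to Ltf counts was 0.239 to 0.484 in controls 1, 2 and 4, 5.83 in control 3 and 3.86 to 24.7 in the naphthalene libraries.

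**Figure D2:**
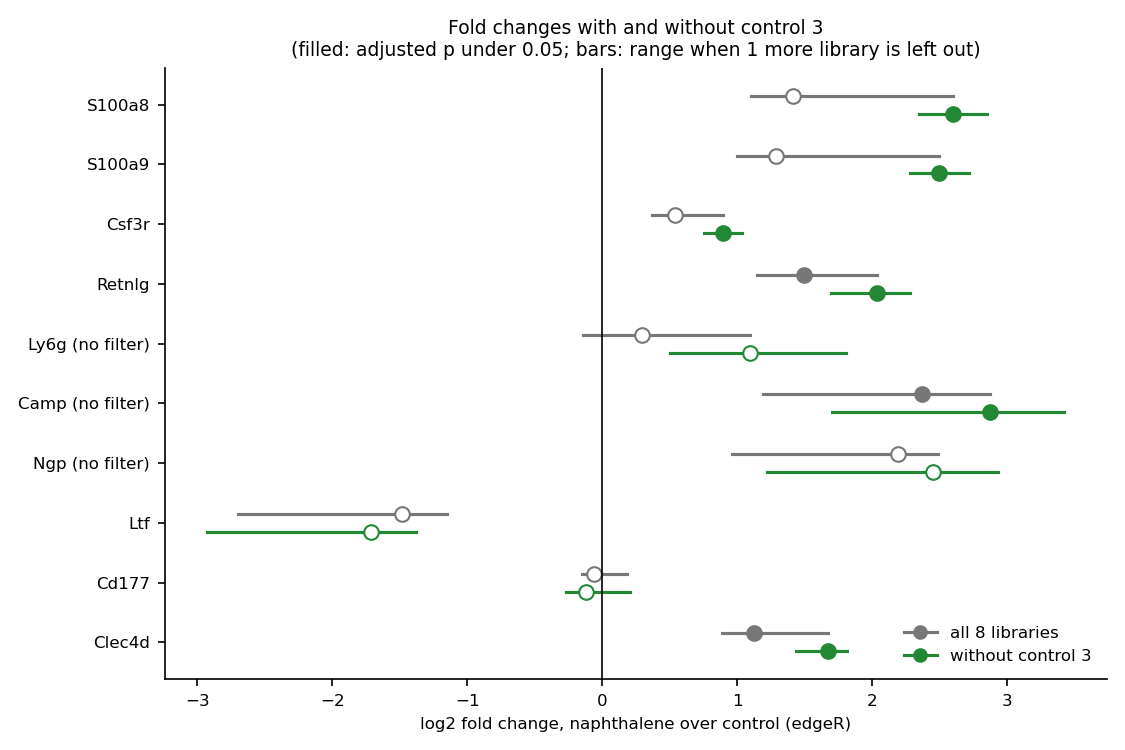
Log2 fold change of each gene, naphthalene over control, with all 8 libraries (grey) and without control 3 (green); filled points have an edgeR adjusted p under 0.05, and bars run from the lowest to the highest value when 1 more library is left out. Removing control 3 moves S100a8 from 1.42 to 2.60, while Cd177 stays near 0 (-0.06 and -0.12) and Ltf is negative throughout.

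Per kilobase of merged exon, the order of levels in controls 1, 2 and 4 ran S100a9 (60.0 CPM per kb), S100a8 (30.0), Ltf (15.6), Retnlg (7.11), Csf3r (6.00), Clec4d (2.15), Cd177 (1.43), Camp (0.238), Ngp (0.216) and Ly6g (0.203). The ranges of Retnlg and Csf3r overlapped, as did those of Clec4d and Cd177 and those of the last 3. After naphthalene the order was S100a9 (339.3 CPM per kb), S100a8 (182.5), Retnlg (29.5), Csf3r (11.1), Clec4d (6.98), Ltf (4.87), Camp (1.90), Ngp (1.34), Cd177 (1.33) and Ly6g (0.432). Here Ltf spanned 1.25 to 13.4 CPM per kb and overlapped both Csf3r and Clec4d, which overlapped each other, and S100a9 and S100a8 overlapped as well. The places of Camp and Ngp rest on naphthalene 3: Camp spanned 0.483 to 5.22 and Ngp 0.375 to 3.74 CPM per kb, both across the range of Cd177 (1.19 to 1.45) and into that of Ltf, and Ly6g overlapped both at 0.190 to 0.692 CPM per kb. Control 3 resembled the naphthalene libraries in the top places, with S100a9 at 375.2 and S100a8 at 183.7 CPM per kb.

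Control 3 was the highest control in 8 of the 10 members, where it was so in 33.5% of all tested genes. It held 6, 6 and 9 counts of Camp, Ngp and Ly6g, which are among the 8 but not among the tested genes. It reached at least 2 times the mean of the other controls in 5 of the 7 tested members (S100a8 6.13-fold, S100a9 6.25-fold, Clec4d 2.94-fold, Retnlg 2.90-fold and Csf3r 2.13-fold), where 0.627% of tested genes did so. Cd177 and Ltf were the tested members in which it did not, at 0.841 and 0.406 times that mean. Control 3 was singled out with its high S100a8 level already known. These shares therefore describe that library and are no independent support. Its monocyte, alveolar macrophage, erythroid and platelet sums were 1026, 327, 55.8 and 38.6 CPM, against 923 to 1017, 226 to 306, 31.6 to 1263 and 18.0 to 34.2 CPM in the other controls. Most of the monocyte sum was Ace, an enzyme that lung endothelium also makes, and without it the sum was 345.9 CPM in control 3 and 250.1 to 316.6 CPM in the other controls (a split made after values were seen). The monocyte genes F13a1 and Ccr2 were 1.78 and 1.51 times the mean of the other controls in control 3, the highest ratios of that list. Those of Cx3cr1, Treml4, Ly6c2, Csf1r and Ace were 1.197, 1.069, 1.062, 1.020 and 0.990. The part of other cells in the values of control 3 was not tested.

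Averaged over all 10 members, the log2 CPM centred on each gene's own mean was 0.45 in control 3, against -0.84 to -0.53 in the other controls. It was -0.07, 0.20, 1.06 and 0.49 in naphthalene 1 to 4. Control 3 was above the gene's mean in 8 of 10 members, the same number as naphthalene 2, while naphthalene 1 was above it in 4. Clec4d was the member nearest to this mean profile (root mean square difference 0.24 log2 units over 8 libraries), followed by Csf3r (0.35) and Retnlg (0.45), and Ltf was the farthest (1.85).

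Outside the 10 members, the 8 genes with profiles nearest to that mean, of 13909 compared, were Pla2g7, Ctla2a, Cd300lf, Trem1, Tlr13, Cd33, Lilrb4a and Mrps22. Their root mean square differences ran from 0.15 log2 units (Pla2g7) to 0.24 (Mrps22), and the median over all genes compared was 0.67. Pla2g7, which encodes the platelet-activating factor acetylhydrolase, measured 9.55 CPM on average in controls 1, 2 and 4, 20.6 CPM in control 3 and 19.9 CPM after naphthalene. Cd300lf, Trem1, Cd33 and Lilrb4a encode receptors of myeloid cells, Tlr13 a sensor of bacterial ribosomal RNA, and Mrps22 a protein of the mitochondrial ribosome.

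The other genes of the neutrophil programme were read from 8 role lists with 64 genes, of which 53 had counts. With all 8 libraries 44 were tested, 9 rose and 4 fell, with a median log2 fold change of 0.24. Without control 3, 47 were tested, 17 were higher and 3 lower, with a median of 0.38. The 9 include Prtn3, Cxcl1 and Cxcl5, and the 17 include Prtn3, Cxcl1, Cxcl3, Acod1 and Stfa2l1. These genes had enough counts for the filter only through the naphthalene libraries, so the numbers of higher genes are given as descriptions. The shares of all tested genes called in each direction are those given above, 14.1% and 14.6% with all libraries and 13% and 13.4% without control 3.

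Primary granule genes, which are transcribed in immature marrow cells, were nearly silent in control lungs. Prtn3, the protease proteinase 3, had 0, 2, 2 and 1 counts in controls 1 to 4 and 24, 13, 12 and 10 counts in naphthalene 1 to 4. It was the 1 tested gene of this list and passed as higher (log2 fold change 3.31, edgeR adjusted p = 0.000923), with control 3 among the other controls. Since it had enough counts for the filter only through the naphthalene libraries, and too few once naphthalene 1 was left out, that call is given as a description. Elane, the neutrophil elastase gene, singled out after its values were seen, had 0, 0, 0 and 1 counts in controls and 9, 7, 10 and 7 counts after naphthalene. It was too low for the filter, and passed in the fit without one (edgeR adjusted p = 0.00224). Mpo (myeloperoxidase) had 0, 0, 0 and 1 counts in controls and 2, 1, 7 and 0 counts after naphthalene, and did not pass without a filter (edgeR adjusted p = 0.176). Ctsg (cathepsin G) and Ms4a3 had no counts in controls and 0 to 3 and 0 to 5 counts per naphthalene library.

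Of the 10 other granule and secreted genes, all tested, 2 rose and 1 fell. Lcn2, the iron-siderophore-binding lipocalin of secondary granules and also of epithelium, measured 27.8, 50.5, 51.1 and 34.0 CPM in controls and 160.7, 160.9, 224.0 and 221.9 CPM after naphthalene. The groups did not overlap, and Lcn2 rose by a log2 value of 2.23 (SE 0.26, edgeR adjusted p = 4.74e-05). Mmp8, neutrophil collagenase, rose from 3.68, 2.61, 8.70 and 3.72 CPM to 7.44, 13.6, 22.3 and 11.5 CPM (edgeR adjusted p = 0.0126; log2 fold change 1.56), with control 3 above naphthalene 1 alone. Hp (haptoglobin, which binds free haemoglobin) fell by 1.10 on the log2 scale (edgeR adjusted p = 0.00203). Without control 3, 4 rose and 1 fell, the further ones being Mmp9 (gelatinase B, log2 fold change 0.74, edgeR adjusted p = 0.00936) and Wfdc21 (1.72, edgeR adjusted p = 0.0187), both named after their values were seen. With control 4 also out neither passed (edgeR adjusted p = 0.0507 for Mmp9), and Wfdc21 was lost without control 1 as well (edgeR adjusted p 0.0735 to 0.0755).

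The 18 other neutrophil receptors included 12 with counts, all tested, and 1 of them rose. Itgam, the integrin alpha chain CD11b that monocytes and macrophages share, went from 25.8 ± 5.34 to 37.6 ± 4.92 CPM (SD, n = 4 each; edgeR adjusted p = 0.0221, log2 fold change 0.55, SE 0.18). Itgam no longer passed when control 1 or 2 or naphthalene 2 or 3 was removed (edgeR adjusted p 0.0556 to 0.0666). Without control 3 the receptors Trem1 (0.82, edgeR adjusted p = 0.0349) and Clec4e (1.06, edgeR adjusted p = 0.0490) also passed; Clec4e was named after its values were seen. Both lost that call in most fits that left out a further library: Trem1 in 6 of the 7 and Clec4e in 5. The median over the 12 tested receptors was -0.10, or 0.02 without control 3, near that of all genes.

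In all, 2 of 4 tested subunits of the phagocyte oxidase fell, and none rose, where 14.6% of all tested genes passed as lower. Ncf1, its p47phox subunit, fell by 0.51 on the log2 scale (33.8 ± 3.14 to 23.8 ± 1.65 CPM, SD, n = 4 each; edgeR adjusted p = 0.00446), and its groups did not overlap. Ncf4, its p40phox subunit, fell by 0.48 (edgeR adjusted p = 0.0377), a call lost in 7 of the 8 fits that left out a library, all but that without naphthalene 1 (edgeR adjusted p 0.0651 to 0.107). Without control 3 Ncf4 did not pass (edgeR adjusted p = 0.0710). Ncf1 did (edgeR adjusted p = 0.0125), but not with control 4 also out (edgeR adjusted p = 0.0716). The oxidase is shared by neutrophils, monocytes and macrophages.

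Of 6 tested transcripts of mature neutrophils 1 rose with all libraries and 4 without control 3. Lrg1, a secreted glycoprotein of neutrophils and endothelium, rose from 20.3 ± 4.42 to 58.5 ± 23.6 CPM (SD, n = 4 each; log2 fold change 1.53, edgeR adjusted p = 0.00143), and control 3 was not set apart. The other 3, named after their values were seen, were Il1b (interleukin 1 beta), Acod1 (the itaconate-producing enzyme) and Stfa2l1 (a stefin protease inhibitor with close copies). Il1b measured 14.7, 15.3, 67.3 and 17.9 CPM in controls 1 to 4 and 32.6, 23.7, 42.4 and 34.5 CPM in naphthalene 1 to 4. Control 3 was thus above every naphthalene library, and the log2 fold change was 0.21 with it (edgeR adjusted p = 0.749) and 1.05 without it (edgeR adjusted p = 0.00296). Acod1 went to 2.64 (edgeR adjusted p = 0.00410) and Stfa2l1 to 2.08 (edgeR adjusted p = 0.00840) without control 3. In that fit both had enough counts for the filter only through the naphthalene libraries, so these calls are given as descriptions. Acod1 had too few counts to be tested once naphthalene 1 was left out too.

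**Figure D3:**
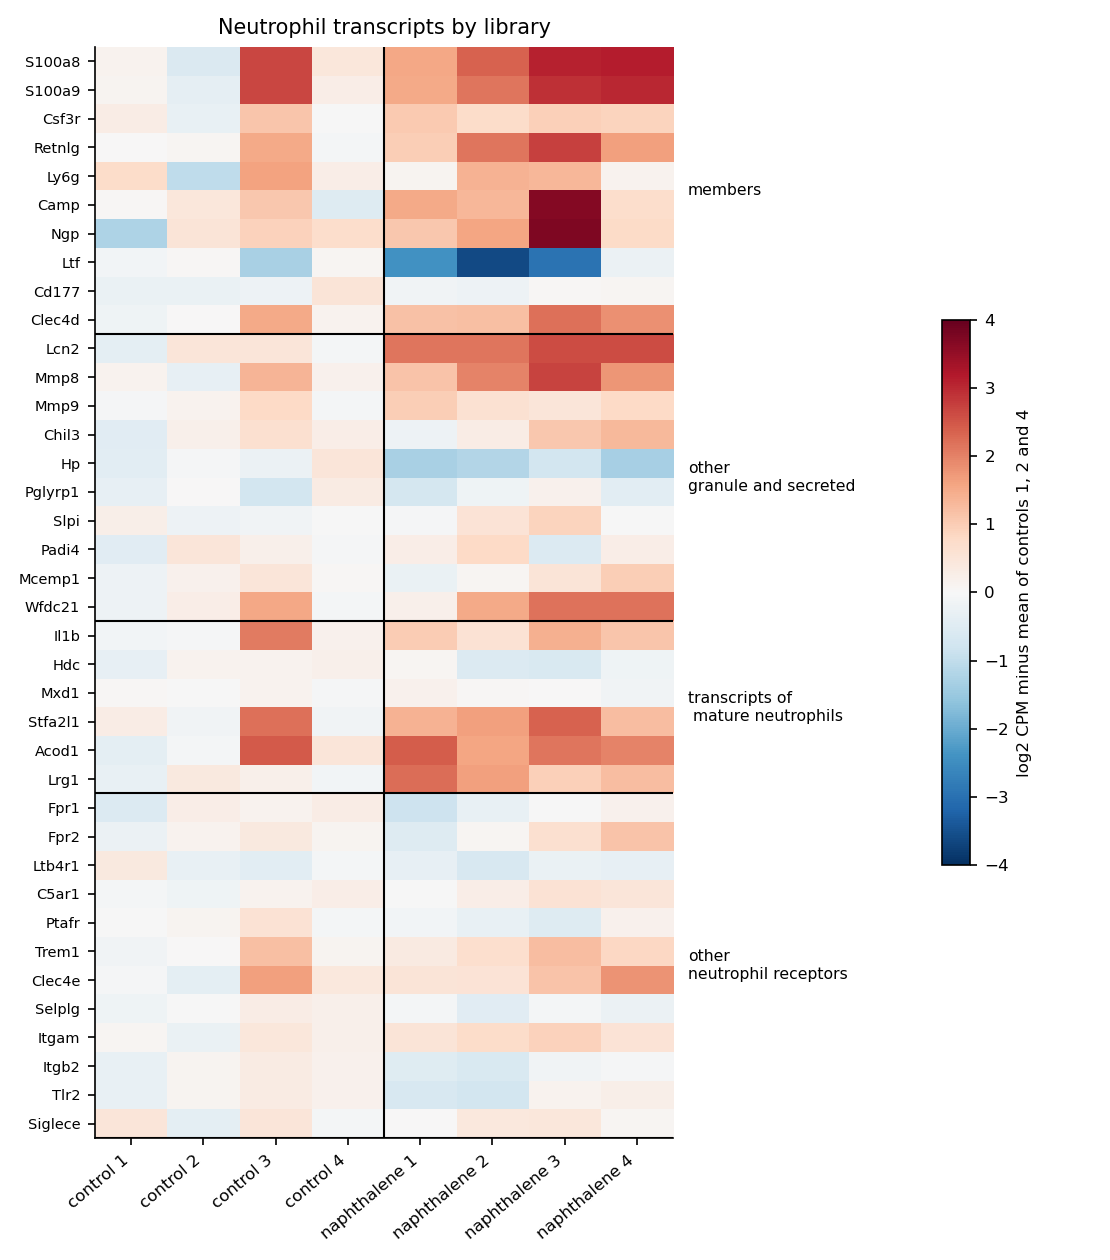
Log2 CPM in each library minus the mean of controls 1, 2 and 4, for the members and for tested genes of 3 role lists; red is higher and blue lower on a scale of log2 units. Control 3 is red beside the naphthalene libraries for S100a8, S100a9, Il1b, Acod1 and Stfa2l1, but not for Lcn2 or Lrg1, which are a deeper red in every naphthalene library than in any control.

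The signals that make and draw neutrophils ranged from a few counts to Cxcl15, a chemokine of lung epithelium, at 1824 ± 326 CPM in controls and 2148 ± 726 CPM after naphthalene (SD, n = 4 each; edgeR adjusted p = 0.437, named after its values were seen). Csf3, the gene of G-CSF, the ligand of Csf3r, had 2, 1, 1 and 0 counts in controls 1 to 4 and 7, 4, 1 and 3 counts in naphthalene 1 to 4, too few to be tested with the filter (without it, edgeR adjusted p = 0.205). Cxcl1, a chemokine for the receptor Cxcr2, went from 0.179, 0.435, 0.264 and 0.0716 CPM to 3.63, 0.978, 1.58 and 1.19 CPM (log2 fold change 2.94, edgeR adjusted p = 0.00383). It had enough counts for the filter only through the naphthalene libraries, so that call is given as a description. Control 3 was not raised in Cxcl1. Cxcl2, of the same family, had 2, 1, 5 and 3 counts in controls and 19, 2, 10 and 11 counts after naphthalene, and did not pass without a filter (edgeR adjusted p = 0.0831).

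Cxcl5, a further Cxcr2 ligand made by epithelium and platelets, had 7, 53, 9 and 12 counts in controls 1 to 4. After naphthalene it had 81, 33, 77 and 72 counts, and control 2 (3.85 CPM) lay above naphthalene 2 (2.15 CPM). Its log2 fold change was 1.67 (edgeR adjusted p = 0.0392), a call lost without any 1 of 5 libraries, control 3 among them (edgeR adjusted p 0.0739 to 0.109). Cxcl5 had enough counts for the filter only through the naphthalene libraries, so that call is given as a description. Cxcl12, which holds neutrophils in marrow through Cxcr4, fell by 0.99 on the log2 scale (edgeR adjusted p = 0.0269), and lost the call without any 1 of 6 libraries (edgeR adjusted p 0.0510 to 0.0745). Without control 3 Cxcl3 (2.08, edgeR adjusted p = 0.0469) passed in place of Cxcl5, and was named after its values were seen. Cxcl3 lost that call without control 1 or 2, and had too few counts to be tested without any 1 naphthalene library. It is therefore given as a description. Icam1, the endothelial and epithelial ligand of the neutrophil integrins, rose by 0.57 (422.0 ± 51.9 to 624.7 ± 45.3 CPM, SD, n = 4 each; edgeR adjusted p = 0.00337). Of 4 tested myeloid transcription factors Cebpd rose by 1.57 (43.0 ± 16.4 to 127.4 ± 13.8 CPM, SD, n = 4 each; edgeR adjusted p = 0.000481). Without control 3 Cebpb passed as well (0.52, edgeR adjusted p = 0.0237), named after its values were seen, but not with control 1, control 2 or naphthalene 3 also out.

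Markers of other cells of the lung are given beside the members. The monocyte list, which could carry S100a8 and Csf3r, summed to 923 to 1026 CPM in controls and 748 to 1564 CPM after naphthalene. The highest sum, in naphthalene 1, was mostly Ace (1353 CPM). Without Ace the sum was 250.1 to 345.9 CPM in controls, highest in control 3, and 210.8 to 301.5 CPM after naphthalene, lowest in naphthalene 1. Of its 7 tested genes F13a1 rose, and Cx3cr1, Treml4 and Csf1r fell. F13a1 no longer passed without control 1, control 2, naphthalene 3 or naphthalene 4 (edgeR adjusted p 0.0570 to 0.0793), and the other 3 passed in all 8 such fits. Without control 3 the same genes passed. Cx3cr1 and Treml4 then each lost the call in 5 of the 7 fits that left out a further library (edgeR adjusted p 0.0607 to 0.127). F13a1 lost it in 1 of those fits, that without control 2, and Csf1r in 0. Alveolar macrophage genes summed to 226 to 327 CPM in controls and 244 to 502 CPM after naphthalene, highest in naphthalene 3 and 4, the same 2 libraries that were highest in S100a8 and S100a9. Of 5 tested, Fabp4 rose, a call lost without control 1, 3 or 4 or naphthalene 3 or 4 (edgeR adjusted p 0.0602 to 0.0828). Fn1 of the first list and Marco of the second lie on chromosome 1 and are listed at 0.

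Eosinophil genes summed to 14.9 to 20.8 CPM in controls and 7.57 to 15.02 CPM after naphthalene, and Il5ra fell, a call lost without any 1 of 5 libraries, control 3 among them (edgeR adjusted p 0.0653 to 0.138). Mast cell and basophil genes summed to 10.3 to 12.7 CPM and 2.46 to 5.59 CPM, with Cpa3 and Ms4a2 lower, and Fcer1a, on chromosome 1, listed at 0. Ms4a2 had enough counts for the filter only through the controls, so its call is given as a description. Without control 3 Cpa3 passed, but lost the call in 4 of the 7 fits that left out a further library (edgeR adjusted p 0.0681 to 0.0954). Ms4a2 lost it in 2 of them (edgeR adjusted p 0.0626 to 0.0730). None of the erythroid or platelet genes passed. The part of these cells in the members' values was not tested.

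**Figure D4:**
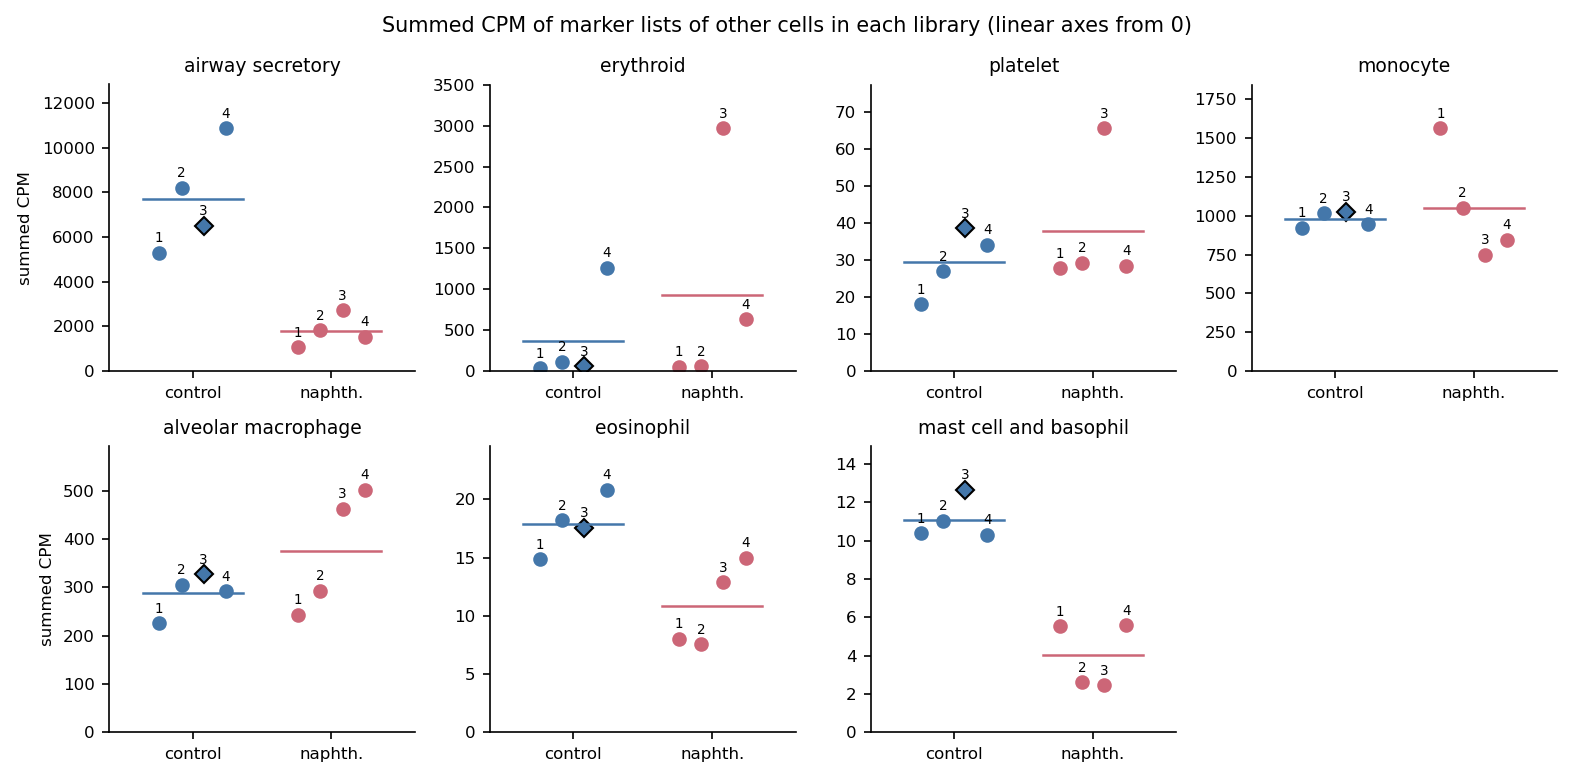
Summed CPM (linear axes from 0) of marker lists of other cells in the 4 control (blue) and 4 naphthalene (red) libraries; numbers are replicate numbers, the diamond is control 3 and lines are group means. Airway secretory sums lie at 5291 to 10870 CPM in controls and 1071 to 2711 CPM after naphthalene, and the erythroid and platelet sums are highest in naphthalene 3.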

How the data were processed

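Stranded libraries (Illumina TruSeq total RNA, DNase-treated RNA) of 8 lungs were sequenced (per the labels' protocols). What the authors deposited are raw counts per gene symbol, not normalized. The submitters' processing notes name build mm39, featureCounts 2.0.6, HISAT2 2.2.1, Trim Galore 0.6.7 and edgeR 4.2.1, with no role or order. Annotation, strand setting and treatment of multi-mapping reads were not given in the sources used here. Hence overlapping, antisense and near-copy genes are uncertain.

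Counts were tested in edgeR 4.0.16 (R 4.3.3): TMM scaling, filterByExpr (minimum count 10, minimum total 15), quasi-likelihood test on group alone, and Benjamini-Hochberg adjustment over all tested genes (threshold 0.05). SE is that of the difference in group-mean log2 CPM (prior count 2), and not that of the edgeR fold change. For genes with few counts, such as Camp and Ngp, the prior count shrinks log2 CPM differences, so their SE can be too small. Camp, Ngp and Ly6g, below the filter, come from fits with no filter. Library pairs within groups had a chi-square of 5.57 to 48.5 per degree of freedom, well above the 1 of sampling noise, so none were merged. On simulated data for all 8 libraries, 36 of 50 genes were recovered at log2 1, 31 of 50 at -1, 50 of 50 at 2 and 46 of 46 at -2, with 6 false calls among 13917. The simulation gave every gene the same relative spread, far below that of S100a8 in controls (47.5 ± 53.7 CPM, SD, n = 4). These rates therefore do not describe members that vary as much. Alternatives used limma 3.58.1 (voom), DESeq2 1.42.0, other scalings and filters, and each library left out.

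The members and lists were chosen with earlier results of these data known. Named were every member, up to 3 called genes of each role list by smallest p (all 8 libraries), Csf3, Cxcl1, Cxcl2 and Cxcl5, and the 8 nearest profiles (mean CPM of at least 1). Exon lengths (GENCODE M21) and RefSeq promoters are on GRCm38, another build than the counts.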

Additional observations from a re-analysis of the deposited data

Results flagged for a closer look

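In 10 of 34 groups of 4 libraries checked, 1 library lay far from the other 3: its gap to the nearest one, divided by the range of the group, was above Dixon's critical value for 4 values. For normally distributed values chance gives this in about 1 of 20 groups, and groups that share a library are not independent of each other. Some of these groups are CPM of genes with few counts. Control 3 and the members were also chosen with earlier results known. The count of groups is therefore a description and no test against chance.

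Control 3 stood above the other controls in 4 members: S100a8 at 127.5 CPM, S100a9 at 195.9 CPM, Retnlg at 12.2 CPM and Clec4d at 10.1 CPM. Csf3r was also highest there, at 46.0 CPM, but within the limit. Control 4 stood apart in Cd177, at 5.73 CPM, and in the erythroid sum, at 1263 CPM.

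Naphthalene 3 stood above its group in the secondary granule genes Camp, at 3.95 CPM, and Ngp, at 4.57 CPM, and in the platelet sum, at 65.6 CPM. Naphthalene 4 stood above its group in Ltf, at 46.1 CPM.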

How the results depend on the processing

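Over all alternatives, 261 of 318 values of single members kept their direction and their side of the threshold, 32 passed where they had not, 21 no longer passed and 4 changed sign. Without control 3, S100a8, S100a9, Csf3r, Retnlg and Clec4d passed in all 15 settings each. With all 8 libraries the count of members called, 2, became 6 with voom and quality weights, 5 higher and 1 lower. It became 6 with a replicate block, also 5 higher and 1 lower. It was 5 without control 3 and naphthalene 1, and 5 without control 3 and naphthalene 3 (chosen after seeing the data). With 1 library left out it ranged from 0 to 5. Calls over all tested genes went from 4075 of 14192 to 6503 with voom weights and 4363 with the block. They were 5349 of 14268 and 2837 of 14314 without those pairs of libraries, and 2929 to 5058 with 1 library left out. The 13 other neutrophil genes called became 25 with voom weights and 21 without control 3 and naphthalene 1, and 9 to 20 with 1 library left out. Without control 3, the 20 called were 27 with voom weights, 22 with DESeq2, and 13 (without control 4) to 21 with 1 more library left out. There, calls over all tested genes went from 3807 of 14420 to 6459 with voom weights and 4355 with DESeq2. With 1 more library left out they ranged from 2081 of 14513 (without control 4) to 5349 of 14268. The cause of these shifts was not tested. With 1 library left out, Ly6g ranged from -0.14 to 1.10 (-0.14 without control 2, -0.06 without naphthalene 2), Cd177 from -0.15 to 0.19 (0.19 without control 4; -0.27 to 0.21 with control 3 also out, 0.21 again without control 4) and Il1b from -0.00440 (without control 1) to 1.05.

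Replicate numbers did not pair the libraries: same-numbered libraries correlated at -0.09 to 0.29, with 2 of 4 pairs over 0.1 and 1 of 4 controls closest to its own number, so the replicate block joins libraries that share only a number. Without control 3, the block took Ltf past the threshold (-1.99, edgeR adjusted p = 0.0278) and Camp out of it (1.66, edgeR adjusted p = 0.152). Ly6g, Camp and Ngp had at most 52 counts in any library, which limits their precision.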
